A study of Mus musculus with 9 samples.

Results

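The 9 genes described here encode integrins, ligands of integrins and adhesion receptors of the B cell surface, *Itgal*, *Itgb2*, *Itga4*, *Itgb1*, *Itgb7*, *Icam1*, *Icam2*, *Cd44* and *Selplg*. They were taken by gene symbol from a deposited expression table of 17596 genes. The list was chosen with earlier results of these data known. All 9 were among the 10823 genes that were tested, those whose mean over the libraries reached 1 FPKM. FPKM are fragments per kilobase of transcript and per 1000000 mapped fragments. Levels are set side by side between genes and between libraries below, and comparisons between the days depend on the scaling, as given there.

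Integrins are pairs of an α and a β chain that hold leukocytes to other cells and to matrix. In resting cells they are mostly in a bent form of low affinity, and signals through RAP1, talin and kindlin open them ("inside-out" activation). LFA-1 (αL with β2) binds ICAM-1 and ICAM-2 and serves in B cells at the contact with antigen-presenting and T cells. The α4 chain pairs with β1 to form VLA-4, which binds VCAM-1 and fibronectin, or with β7 to form the receptor for MAdCAM-1 that guides lymphocytes to the gut. CD44 binds hyaluronan, and PSGL-1, the product of *Selplg*, carries the sugars that selectins bind.

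RNA sequencing was performed on splenic B cells of C57BL/6J background mice of 6 to 8 weeks, in 4 groups and 9 libraries. *Mb1Cre* mice were the control (2 libraries on day 0, 2 on day 3), and *Mct1f/fMb1Cre* mice, written Mctf/fMb1Cre in the labels and given there as cKO, carried 2 floxed copies of *Mct1* (2 libraries on day 0, 3 on day 3). Day 0 cells were not treated, and day 3 cells had been cultured for 3 days with LPS (10 μg/mL), a bacterial activator of B cells through TLR4, and IL-4 (50 ng/mL), which together induce antibody class switching. The comparisons ask how the adhesion genes change with activation and whether loss of the monocarboxylate transporter MCT1 alters them. Both genotypes carry Cre in the *Mb1* (*Cd79a*) locus, which is active from early B cell stages on, so an effect of Cre itself is shared by the groups. The floxed segment reaches from exon 1 to intron 3 of *Mct1*, listed in the table as *Slc16a1*. The labels give numbers for the replicates but no mouse, so p-values measure the spread between these samples, which may be technical.

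The targeted gene was lower in the *Mct1f/fMb1Cre* libraries on day 3, and its values overlapped on day 0. *Slc16a1* stood at 22.6 and 22.9 FPKM in the control libraries of day 3 and at 10.8, 9.81 and 9.50 FPKM in the *Mct1f/fMb1Cre* libraries of day 3, which was 44.1% of control (log2 fold change -1.11, SE 0.071, adjusted p = 9.07e-06). On day 0 it stood at 4.33 and 3.80 FPKM in control and at 3.71 and 4.06 FPKM in the libraries labelled *Mct1f/fMb1Cre* (log2 fold change -0.05, SE 0.078, adjusted p = 0.844). With that overlap, this gene does not check the genotype of the day 0 libraries, which are named below by their labels.

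Some libraries stood apart in genes of other cells and of sex. The 8 B cell markers summed to between 4415 and 4858 FPKM on day 0 and between 2218 and 2309 FPKM on day 3. On day 0 the most abundant was *Cd79a*, a part of the B cell receptor, at 1573 to 1714 FPKM, and on day 3 it stood at 502 to 575 FPKM. The kinase gene *Blk* went from between 177 and 186 FPKM to between 18.1 and 19.4 FPKM, and the transcription factor gene *Ebf1* from between 54.8 and 61.3 FPKM to between 17.8 and 21.1 FPKM. The 8 monocyte and macrophage markers summed to 973 and 1089 FPKM in control and 1247 and 1048 FPKM in the libraries labelled *Mct1f/fMb1Cre* on day 0, against 39.5 and 41.7 FPKM in control and 47.9, 52.3 and 56.0 FPKM in *Mct1f/fMb1Cre* cells on day 3. The lysozyme gene *Lyz2* was the most abundant of them on day 0 and *Mpeg1*, the perforin-2 gene, on day 3 (24.6 to 29.9 FPKM). The 8 neutrophil markers, led on day 0 by *S100a9*, summed to 462, 638, 1451 and 516 FPKM in the same order of the day 0 libraries and to at most 7.64 FPKM on day 3. The highest of these, 1451 FPKM, belonged to replicate 1 of the *Mct1f/fMb1Cre* label. T and NK cell markers summed to between 42.6 and 50.4 FPKM on day 0 and to between 2.32 and 2.51 FPKM on day 3, and *Cd4* was at or under 0.07 FPKM in every day 3 library. Of the other lists, the 6 marginal zone B cell markers summed to between 241 and 270 FPKM on day 0, led by *Cr2*, and between 49.0 and 60.0 FPKM on day 3, where *Cr2* was at 1.49 to 2.29 FPKM and *Plxnd1*, a semaphorin receptor gene that was at 13.8 to 16.8 FPKM on day 0, led at 17.7 to 20.5 FPKM. The 7 erythroid markers in the table, led on day 0 by *Hba-a1*, went from 126 to 232 FPKM on day 0 to at most 7.95 FPKM on day 3, where *Hbb-bs* and *Slc4a1* were listed at 0 in all 5 libraries. The 5 platelet markers summed to 4.94 to 10.9 FPKM on day 0 and to 2.42 to 4.06 FPKM on day 3, of which *Pf4* alone was at 0.72 to 4.83 FPKM and at 2.05 to 3.79 FPKM.

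The Y-linked gene *Ddx3y* was at 0.24 and 0.02 FPKM in the control libraries of day 0. In those of day 3 it was at 14.7 and 16.5 FPKM, so that sex and activation cannot be told apart in control. In the libraries labelled *Mct1f/fMb1Cre* it was at 31.1 FPKM in replicate 1 and 0.20 FPKM in replicate 2 on day 0 and between 15.4 and 16.9 FPKM on day 3. Results that involve day 0 are therefore also given without one or the other of these libraries where that changes them.

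The main changes of the 9 genes came with activation, and a genotype difference of more than the limit set here was found for *Itgb7* alone, on day 3. *Itgb7* and *Itga4* fell most steeply, *Itgb2* and *Icam2* fell to under 50% of their day 0 level, *Cd44* rose about 3-fold, and *Itgal*, *Itgb1*, *Icam1* and *Selplg* stayed within the limit. A gene was called where the limma adjusted p was under 0.05 and the change exceeded 0.5 on the log2(FPKM + 1) scale. In bulk samples, fewer cells of a type and less RNA per cell cannot be told apart.

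**Figure D1:**
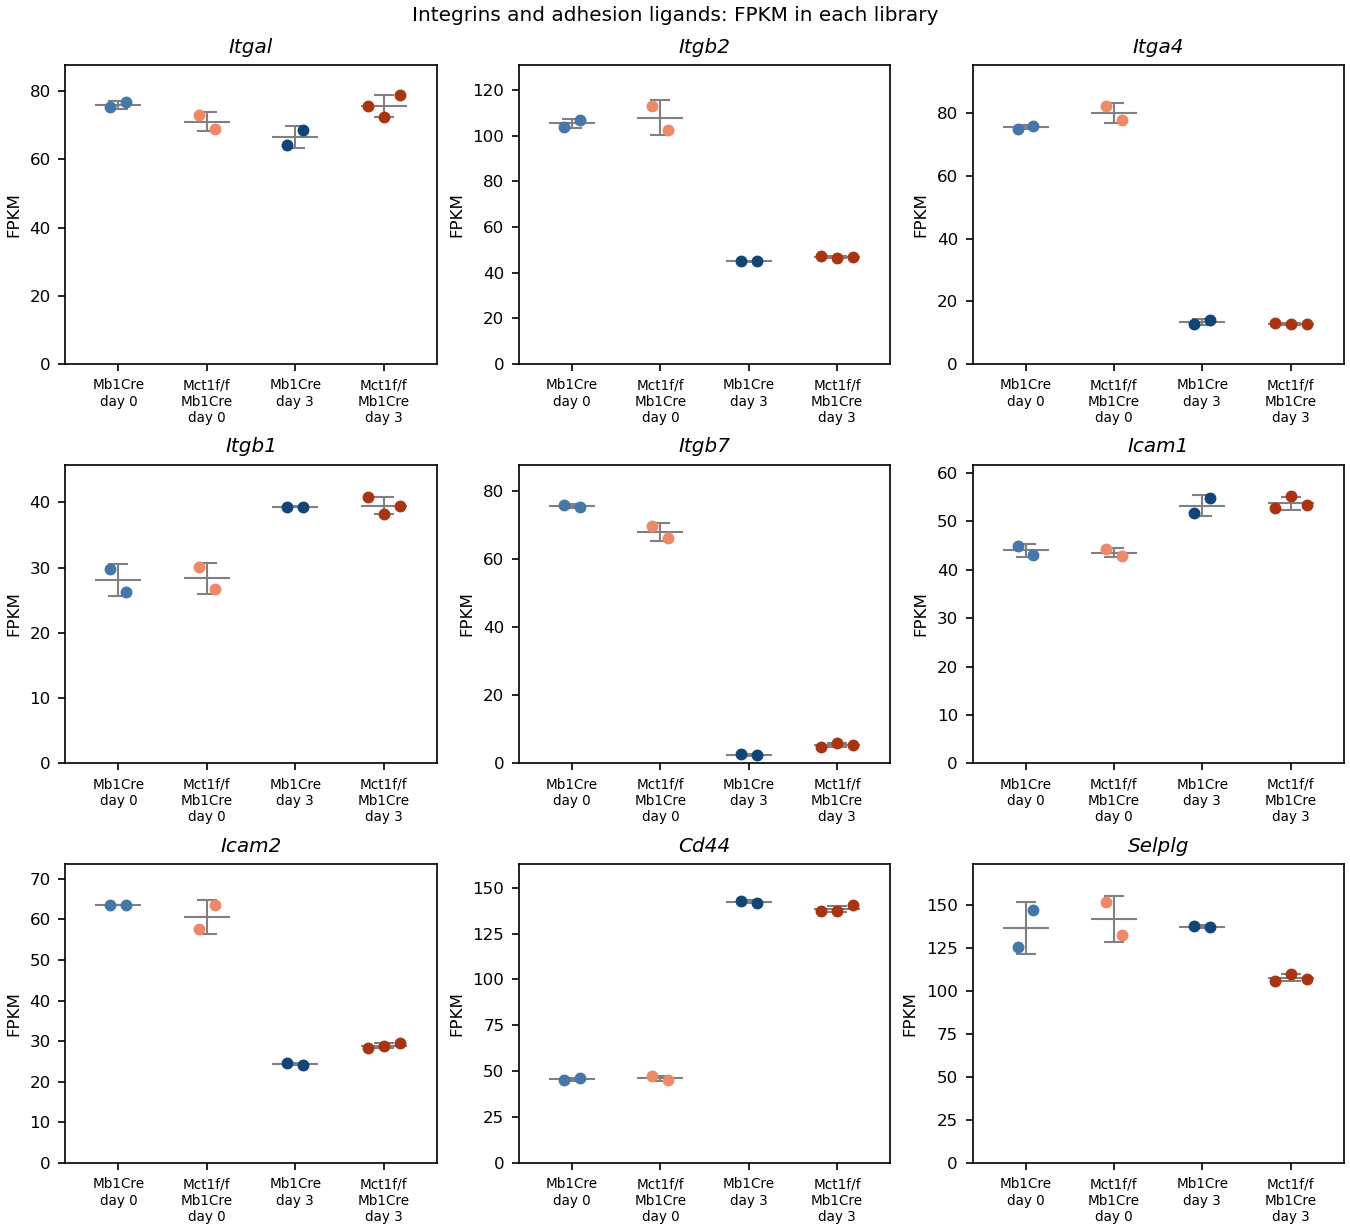
FPKM of the 9 genes in each of the 9 libraries, in 1 panel per gene with the vertical axis from 0; points are libraries, the long bar is the group mean and the whiskers are 1 SD (n = 2, 2, 2 and 3). *Itgb7* falls from 66.1 to 75.8 FPKM on day 0 to 2.34 to 6.04 FPKM on day 3, and the 3 *Mct1f/fMb1Cre* libraries of day 3 lie above both control libraries.

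The LFA-1 chains moved unequally. *Itgb2* (chr10:77530252-77565686, plus strand, 16 exons, GRCm38) encodes β2, which is shared by all the leukocyte integrins of the β2 family. It stood at 104 and 107 FPKM in control and 113 and 102 FPKM in the libraries labelled *Mct1f/fMb1Cre* on day 0. On day 3 it stood at 44.9 and 45.05 FPKM in control and at 47.2, 46.4 and 47.0 FPKM in *Mct1f/fMb1Cre* cells. The days did not overlap, and *Itgb2* fell 2.34-fold in control (log2 fold change -1.21, SE 0.050, adjusted p = 1.31e-09) and 2.30-fold in *Mct1f/fMb1Cre* cells (-1.18, SE 0.046, adjusted p = 6.92e-10).

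*Itgal* (chr7:127296291-127335138, plus strand, 31 exons), which encodes the αL chain found in LFA-1 only, changed by less than the limit. It was measured at 75.2 and 76.7 FPKM in control and 73.0 and 69.0 FPKM in the libraries labelled *Mct1f/fMb1Cre* on day 0, and at 64.2 and 68.8 FPKM in control and 75.8, 72.4 and 78.8 FPKM in *Mct1f/fMb1Cre* cells on day 3. The day 3 control libraries were the lowest of the 9. The log2 fold change with activation was -0.19 in control (SE 0.054, limma adjusted p = 0.00629). In *Mct1f/fMb1Cre* cells it was 0.09 (SE 0.049, adjusted p = 0.106), and both were inside the limit. The sign turned to 0.02 in control under median-of-ratios scaling. It turned to -0.09 in *Mct1f/fMb1Cre* cells under scaling to a common total. Over all alternatives the values ran from -0.39 to 0.02 in control and from -0.09 to 0.31 in *Mct1f/fMb1Cre* cells.

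The α4 gene and its β7 partner fell, while its β1 partner rose by less than the limit. *Itga4* (chr2:79255500-79333123, plus strand, 28 exons) stood at 75.2 and 76.1 FPKM in control and 82.2 and 77.8 FPKM in the libraries labelled *Mct1f/fMb1Cre* on day 0, and at 12.6 and 13.9 FPKM in control and 13.1, 12.6 and 12.6 FPKM in *Mct1f/fMb1Cre* cells on day 3. All day 3 libraries were far under all day 0 libraries, with 17.5% of the day 0 level left in control (log2 fold change -2.43, SE 0.055, adjusted p = 1.60e-11) and 16.0% in *Mct1f/fMb1Cre* cells (-2.56, SE 0.050, adjusted p = 6.58e-12). *Cerkl*, on the opposite strand, overlaps *Itga4* over 2581 bases and had group means of 0.65 to 1.19 FPKM, so reads of the 2 genes cannot be told apart there if strand was not used.

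*Itgb7* (chr15:102215995-102231944, minus strand, 15 exons), the gut-homing partner of α4 and of αE, showed the steepest fall of the 9. It was measured at 75.8 and 75.2 FPKM in control and 69.7 and 66.1 FPKM in the libraries labelled *Mct1f/fMb1Cre* on day 0. On day 3 it was measured at 2.77 and 2.34 FPKM in control and at 4.68, 6.04 and 5.49 FPKM in *Mct1f/fMb1Cre* cells. Day 3 did not overlap day 0, and on day 3 the genotypes did not overlap. The fall was 29.6-fold in control, to 3.38% of day 0 (log2 fold change -4.43, SE 0.092, adjusted p = 1.02e-11), and 12.6-fold in *Mct1f/fMb1Cre* cells, to 7.96% (-3.43, SE 0.084, adjusted p = 2.34e-11).

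*Itgb1* (chr8:128685654-128733200, plus strand, 16 exons), the β1 chain of VLA-4 and of many matrix receptors, was the lowest of the 9 on day 0. It stood at 29.8 and 26.3 FPKM in control and 30.1 and 26.7 FPKM in the libraries labelled *Mct1f/fMb1Cre*, against 39.2 and 39.4 FPKM in control and 40.8, 38.1 and 39.5 FPKM in *Mct1f/fMb1Cre* cells on day 3. All day 3 values exceeded all day 0 values, and the log2 fold change was 0.48 in control (SE 0.069, adjusted p = 5.70e-05) and 0.46 in *Mct1f/fMb1Cre* cells (SE 0.063, adjusted p = 3.23e-05), just inside the limit of 0.5. It passed the limit under median-of-ratios scaling (0.68 in both genotypes), and also in control without replicate 1 of day 0 (0.56) and in *Mct1f/fMb1Cre* cells without replicate 1 of day 0 (0.55).

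Among the ligands, ICAM-2 transcripts fell and ICAM-1 transcripts did not. *Icam2* (chr11:106377656-106382781, minus strand, 4 exons), a short ligand of LFA-1 made by resting lymphocytes and endothelium, stood at 63.5 and 63.5 FPKM in control and 57.7 and 63.7 FPKM in the libraries labelled *Mct1f/fMb1Cre* on day 0. On day 3 it stood at 24.6 and 24.2 FPKM in control and 28.3, 28.7 and 29.6 FPKM in *Mct1f/fMb1Cre* cells. The fall was 2.61-fold in control (log2 fold change -1.35, SE 0.052, adjusted p = 7.56e-10) and 2.10-fold in *Mct1f/fMb1Cre* cells (-1.05, SE 0.047, adjusted p = 2.58e-09).

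*Icam1* (chr9:21015985-21028817, plus strand, 7 exons) encodes the main ligand of LFA-1, known as a target of NF-κB in many cells. It was measured at 45.0 and 43.1 FPKM in control and 44.3 and 42.9 FPKM in the libraries labelled *Mct1f/fMb1Cre* on day 0, and at 51.7 and 54.8 FPKM in control and 52.7, 55.2 and 53.4 FPKM in *Mct1f/fMb1Cre* cells on day 3. The day 3 values were all above those of day 0, by 0.27 on the log2 scale in control (SE 0.048, adjusted p = 2.91e-04) and 0.30 in *Mct1f/fMb1Cre* cells (SE 0.044, adjusted p = 6.51e-05), inside the limit, which it passed in *Mct1f/fMb1Cre* cells under median-of-ratios scaling (0.51). An antisense gene, *Gm47079*, overlaps it over 511 bases and was not analysed here.

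*Cd44* (chr2:102811141-102901625, minus strand, 19 exons), the hyaluronan receptor used as a mark of activated lymphocytes, was the one member called higher. It was measured at 44.9 and 46.0 FPKM in control and 47.1 and 45.05 FPKM in the libraries labelled *Mct1f/fMb1Cre* on day 0, and at 143 and 142 FPKM in control and 137, 137 and 140.4 FPKM in *Mct1f/fMb1Cre* cells on day 3. The groups of the 2 days lay far apart, with a 3.13-fold rise in control (log2 fold change 1.62, SE 0.041, adjusted p = 3.13e-11) and a 3.00-fold rise in *Mct1f/fMb1Cre* cells (1.57, SE 0.037, adjusted p = 1.87e-11).

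*Selplg* (chr5:113818547-113830501, minus strand, 2 exons), the PSGL-1 gene, was the highest of the 9 on day 0. It stood at 126 and 147 FPKM in control and 151 and 132 FPKM in the libraries labelled *Mct1f/fMb1Cre* on day 0, and at 138 and 137 FPKM in control and 106, 109.8 and 107 FPKM in *Mct1f/fMb1Cre* cells on day 3. The day 0 libraries had a larger SD than those of any other member, and the 3 *Mct1f/fMb1Cre* libraries of day 3 were the lowest of the 9. With activation the log2 fold change was 0.01 in control (SE 0.075, adjusted p = 0.869), turning to -0.19 under scaling to a common total and -0.23 under quantile normalization. In *Mct1f/fMb1Cre* cells it was -0.39 (SE 0.069, adjusted p = 2.39e-04), which passed the limit under those scalings (-0.57 and -0.63).

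Promoters of 5 of the 9 genes were matched in the RefSeq promoter table of GRCm38.p6 (*Itga4*, *Itgb1*, *Itgb7*, *Icam1* and *Cd44*). Shown are the 250 bases before the start the table uses, 5′ to 3′ on the strand of the gene, for the member that fell most, the one called higher and the ligand known for its NF-κB sites, at chr15:102231936-102232185 (minus strand), chr2:102901666-102901915 (minus strand) and chr9:21015690-21015939 (plus strand). Capitals mark matches, on either strand, to GG and TTCC parted by 3 bases (NF-κB type) and to TTC and GAA parted by 3 or 4 bases (STAT type).
Itgb7: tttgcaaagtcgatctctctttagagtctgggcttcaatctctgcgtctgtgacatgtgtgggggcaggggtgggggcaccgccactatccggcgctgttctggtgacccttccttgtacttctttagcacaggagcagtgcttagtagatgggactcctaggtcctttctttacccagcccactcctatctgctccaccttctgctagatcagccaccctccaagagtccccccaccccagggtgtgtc
Cd44: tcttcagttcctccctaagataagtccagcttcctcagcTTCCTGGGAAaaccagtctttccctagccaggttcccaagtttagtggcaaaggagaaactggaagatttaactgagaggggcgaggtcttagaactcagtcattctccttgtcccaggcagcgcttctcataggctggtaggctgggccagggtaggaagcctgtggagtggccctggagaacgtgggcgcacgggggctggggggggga
Icam1: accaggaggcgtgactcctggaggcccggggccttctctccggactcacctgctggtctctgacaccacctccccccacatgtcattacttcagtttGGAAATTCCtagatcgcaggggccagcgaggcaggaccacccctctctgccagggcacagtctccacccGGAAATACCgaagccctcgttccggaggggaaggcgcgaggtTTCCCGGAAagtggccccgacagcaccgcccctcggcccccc

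The *Icam1* window held 2 matches of the NF-κB type, from -153 to -145 and from -84 to -76 counted from the start, and 1 of the STAT type with 3 bases between, from -42 to -34. The *Cd44* window held 1 match of the STAT type with 4 bases between, from -211 to -202. *Itgb1* held 1 match of the NF-κB type, from -164 to -156, and the *Itgb7* and *Itga4* windows held no match. The *Itgb7* gene of RefSeq reaches upstream of the start used, to 102233405, and 9 bases of its window lie in annotated exons. Of 32851 promoter windows of the same length, 15.7% held the NF-κB type, 7.02% the STAT type with 3 bases and 5.85% that with 4 bases between. These are matches of letters and no measure of binding.

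With activation, *Cd44* was called higher and *Itgb7*, *Itga4*, *Icam2* and *Itgb2* lower in each genotype, against a background of very many called genes. In control, 1 of 9 was called higher, where 24.8% of all tested genes were called higher, and 4 of 9 were called lower, where 33.0% were. In *Mct1f/fMb1Cre* cells the counts were again 1 higher (23.4% of all genes) and 4 lower (33.2% of all genes). By the adjusted p alone, 3 were higher and 5 lower in control (37.0% and 47.5% of all genes) and 3 higher and 5 lower in *Mct1f/fMb1Cre* cells (36.4% and 49.1%). The median log2 fold change of the 9 was -0.19 in control and -0.39 in *Mct1f/fMb1Cre* cells, beside -0.12 and -0.14 over all tested genes. The counts of called members are a description and were not tested against the shares of all genes. The genotypes have no control library in common, but both comparisons set a culture against fresh cells. Monocyte, neutrophil and erythroid markers were also lower on day 3, as given above, and their part in the falls of these genes, several of which myeloid cells also express, was not tested.

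**Figure D2:**
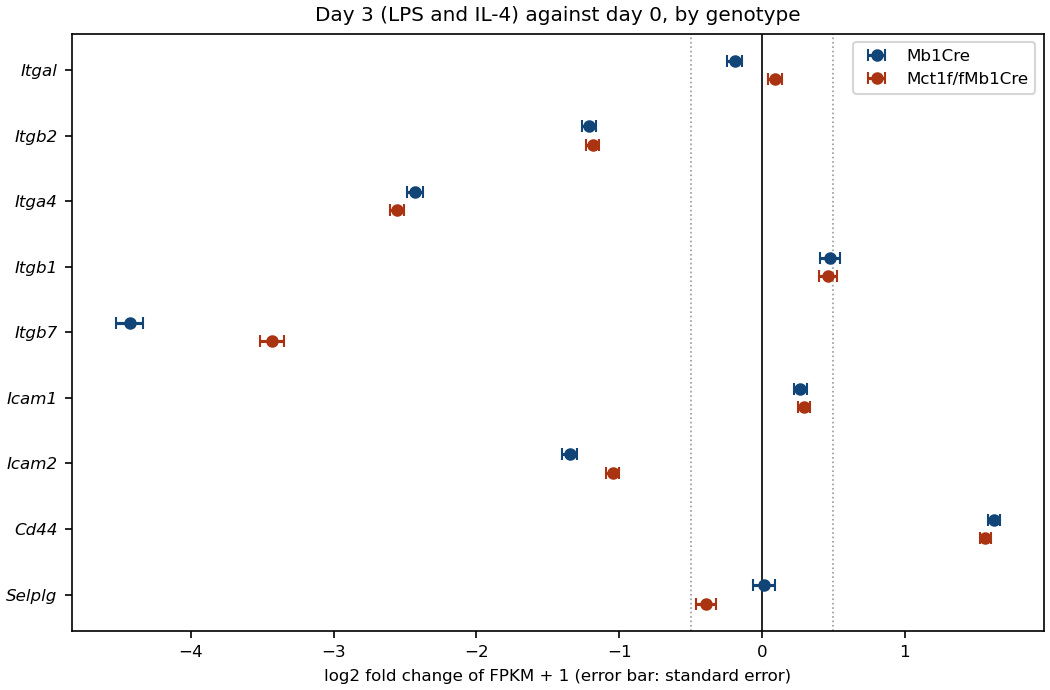
Log2 fold change of FPKM + 1 from day 0 to day 3 for each of the 9 genes, with standard errors; blue is *Mb1Cre*, red is *Mct1f/fMb1Cre*, and dotted lines mark the limit of 0.5. *Cd44* lies at 1.62 and 1.57 and *Itgb7* at -4.43 and -3.43, while the signs of *Itgal* in both genotypes and of *Selplg* in *Mb1Cre* depend on the scaling.

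The scaling of the libraries bears on these values. FPKM summed to between 477079 and 491459 per library on day 0 and between 547355 and 563586 on day 3, and the 9 genes took 0.127% to 0.139% of the sum on day 0 and 0.0908% to 0.0962% on day 3. The median change of all genes in control moved from -0.12 to -0.31 under scaling to a common total, to 0.06 under median-of-ratios scaling and to 0.0082 under quantile normalization. In *Mct1f/fMb1Cre* cells it moved from -0.14 to -0.30, 0.06 and 0.02, in the same order. The share of called genes that were higher was 42.9% in control and 41.4% in *Mct1f/fMb1Cre* cells, 32.0% and 31.7% under the common total, 55.4% and 54.9% under median-of-ratios scaling and 50.8% and 51.4% under quantile normalization. The 5 called members kept their direction under all of these, with *Itgb7* in control between -4.61 and -4.24 and *Cd44* between 1.42 and 1.83.

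The order of the levels was therefore recast between the days. In control on day 0, *Selplg* (136 ± 15.2 FPKM, SD, n = 2) and *Itgb2* (105 ± 2.16) led, the levels of *Itgal*, *Itga4* and *Itgb7* (76.0, 75.6 and 75.5) overlapped, *Icam2* (63.5) followed, *Cd44* and *Icam1* (45.5 and 44.0) overlapped, and *Itgb1* (28.0 ± 2.45) was last. The libraries labelled *Mct1f/fMb1Cre* had the same order on day 0 except that *Itga4* (mean 79.995 FPKM, SD 3.17) stood above *Itgal* (71.0 ± 2.81) and *Itgb7* (67.9 ± 2.55), which overlapped. On day 3 no neighbours overlapped in either genotype, and the order was the same in both: *Cd44* (142 ± 0.834 in control, 138 ± 1.78 in *Mct1f/fMb1Cre* cells, n = 3), *Selplg*, *Itgal*, *Icam1*, *Itgb2*, *Itgb1*, *Icam2*, *Itga4* and *Itgb7*. *Itgb7* went from level with *Itgal* and *Itga4* to the last place.

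Ratios within a library do not change when all its values are scaled by a common factor, and they show the change of proportions. They were taken from the FPKM as deposited. Quantile normalization uses no such factor and can change them. *Itgb7* made up 71.8% and 74.1% of the summed *Itgb1* and *Itgb7* FPKM in control on day 0 and 69.9% and 71.2% in the libraries labelled *Mct1f/fMb1Cre*. On day 3 it made up 6.59% and 5.61% in control and 10.3%, 13.7% and 12.2% in *Mct1f/fMb1Cre* cells. β7 transcripts thus outnumbered β1 transcripts on day 0 and were the minor of the 2 in all 5 day 3 libraries. *Itgal* was at 0.724 and 0.717 of the *Itgb2* level in control on day 0 and at 1.43 and 1.53 times its level on day 3, and at 0.644 and 0.674 and then 1.60, 1.56 and 1.68 times in the libraries labelled *Mct1f/fMb1Cre*. The ratio of *Icam1* to *Icam2* was 0.693 ± 0.0210 (SD, n = 2) and 0.720 ± 0.0665 (n = 2) on day 0, and 2.19 ± 0.114 (n = 2) in control and 1.86 ± 0.0612 (n = 3) in *Mct1f/fMb1Cre* cells on day 3. *Cd44* stood at 0.335 and 0.326 of *Selplg* on day 0 and at 1.04 times *Selplg* in control and 1.29 times in *Mct1f/fMb1Cre* cells on day 3. *Itga4* relative to its 2 partners together went from 0.731 to 0.316 in control and from 0.831 to 0.285 in *Mct1f/fMb1Cre* cells.

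**Figure D3:**
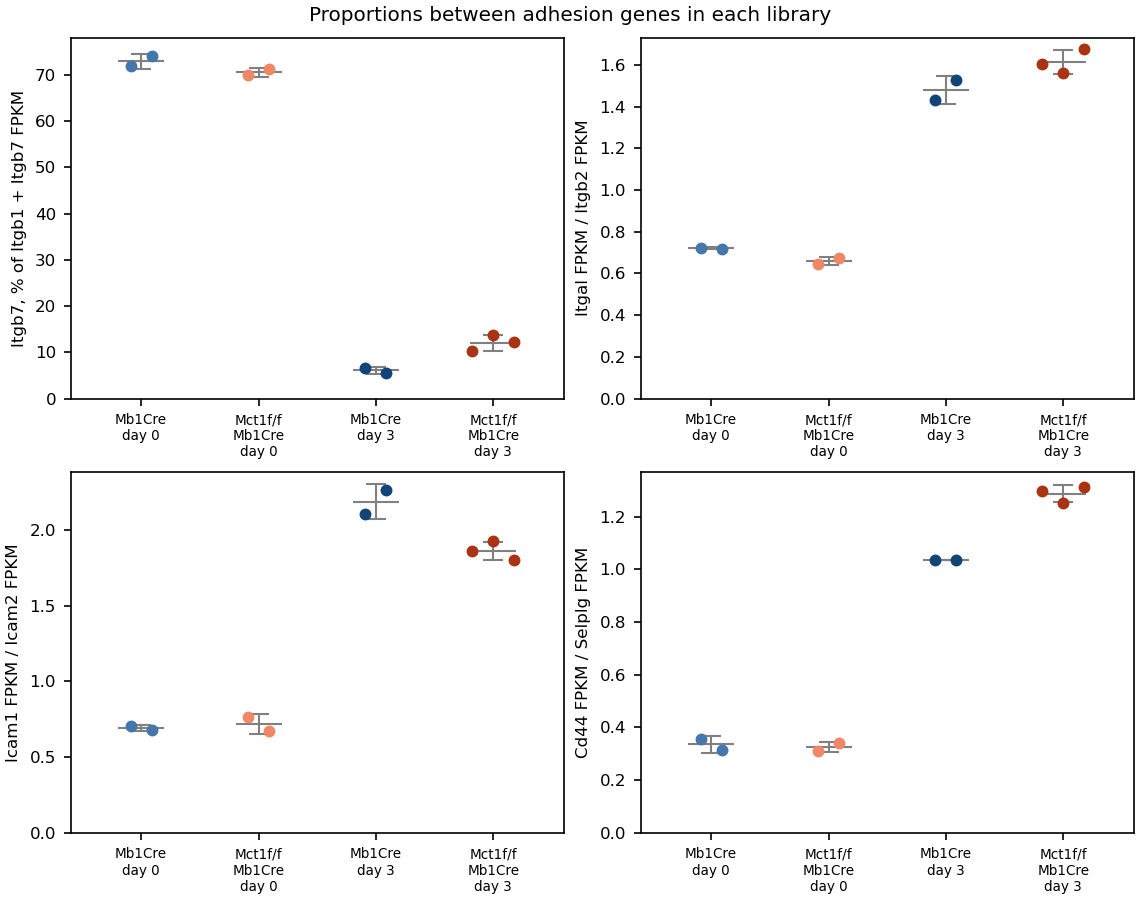
Proportions between pairs of the genes in each library, from 0, as *Itgb7* in percent of *Itgb1* plus *Itgb7* and as the FPKM ratios *Itgal* to *Itgb2*, *Icam1* to *Icam2* and *Cd44* to *Selplg*; points are libraries, long bars group means, whiskers 1 SD (n = 2, 2, 2 and 3). Each ratio separates day 3 from day 0, with *Itgb7* at 73.0% and 70.5% on day 0 and 6.10% and 12.1% on day 3.

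Between the genotypes on day 3, 1 of the 9 genes differed beyond the limit. *Itgb7* was 2.11-fold higher in *Mct1f/fMb1Cre* cells than in control (5.40 ± 0.684 FPKM, n = 3, against 2.56 ± 0.304 FPKM, n = 2; log2 fold change 0.85, SE 0.084, 95% interval 0.66 to 1.03, adjusted p = 1.27e-04), with all 3 libraries above both control libraries. Both levels are low beside those of day 0, and the change was 0.46 with a pseudocount of 5 and 1.049 with one of 0.1. Over all genes, 0.887% were called higher and 1.53% lower in *Mct1f/fMb1Cre* cells, where the members gave 1 and 0 of 9.

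A further 3 members differed by the adjusted p but by less than the limit. *Selplg* stood at 78.3% of control (log2 fold change -0.35, SE 0.069, adjusted p = 0.00675), *Icam2* at 118% (0.24, SE 0.047, adjusted p = 0.00779) and *Itgal* at 114% (0.18, SE 0.049, adjusted p = 0.0289), each without overlap between the genotypes. How many of all genes lack overlap was not counted, so in groups this small it is a description only, here and for other genes. With the adjusted p alone, 3 members were higher and 1 lower, beside 6.03% and 9.21% of all genes. For the other 5 the genotype difference was small and its 95% interval narrow, though the values of *Itgb2* and *Cd44* did not overlap between the genotypes either. It ran from -0.04 to 0.16 for *Itgb2*, from -0.16 to 0.07 for *Itga4*, from -0.13 to 0.15 for *Itgb1*, from -0.08 to 0.11 for *Icam1* and from -0.12 to 0.04 for *Cd44* (adjusted p between 0.452 and 0.965). The median over the 9 was 0.01, beside -0.01 over all tested genes.

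Some markers of other cells differed between the genotypes on day 3 as well, and others did not. *Lyz2* was at 11.5 and 10.0 FPKM in control and 16.8, 17.6 and 20.4 FPKM in *Mct1f/fMb1Cre* cells (log2 fold change 0.71, adjusted p = 0.00150), *Mpeg1* at 24.6 and 27.3 FPKM and 26.3, 29.4 and 29.9 FPKM (0.13, adjusted p = 0.204), and *Adgre1*, which encodes the macrophage marker F4/80, at 0.44 and 0.58 FPKM against 1.5, 1.37 and 1.39 FPKM (0.68, adjusted p = 4.25e-04). *Fcgr3* of the same list went the other way (-0.24, adjusted p = 0.279). Its other genes were not called by limma: *C1qa* (0.30, adjusted p = 0.171), *Cd14* (0.27, adjusted p = 0.275), *Csf1r* (0.27, adjusted p = 0.0809) and *Clec4n* (0.0098, adjusted p = 0.955). T and NK cell markers summed to 2.43 and 2.44 FPKM in control and 2.51, 2.32 and 2.51 FPKM in *Mct1f/fMb1Cre* cells. The 8 monocyte and macrophage markers summed to 39.5 and 41.7 FPKM in control and 47.9, 52.3 and 56.0 FPKM in *Mct1f/fMb1Cre* cells. The neutrophil markers summed to 6.86 and 6.30 FPKM in control and 7.64, 2.96 and 2.67 FPKM in *Mct1f/fMb1Cre* cells. The 6 marginal zone B cell markers summed to 49.0 and 49.0 FPKM in control and 54.9, 58.0 and 60.0 FPKM in *Mct1f/fMb1Cre* cells. *Dtx1*, a Notch pathway gene, was at 0.48 (adjusted p = 0.00107) and *S1pr3*, a sphingosine 1-phosphate receptor, at 0.38 (adjusted p = 0.00166), both inside the limit. The others were *Cr2* (0.32, adjusted p = 0.0453), *Myof* (0.20, adjusted p = 0.152), *Cd1d1* (0.0028, adjusted p = 0.985) and *Plxnd1* (-0.06, adjusted p = 0.657). The part of these markers in the difference of *Itgb7*, *Icam2* and *Itgal* was not tested.

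On day 0, no member was called by limma between the libraries of the 2 labels, and 0 of 9 had an unadjusted p under 0.05. Over all genes, 0.24% were called higher and 0.037% lower. The log2 fold changes ran from -0.15 (*Itgb7*, 95% interval -0.36 to 0.05) to 0.08 (*Itga4*, -0.04 to 0.20), with adjusted p between 0.533 and 0.948. The median of the 9 was 0.02, beside -0.00249 over all genes. Without replicate 1 of the *Mct1f/fMb1Cre* label, which had the high neutrophil and Y-linked values, *Itgb7* was at -0.19, and without replicate 2 at -0.11.

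**Figure D4:**
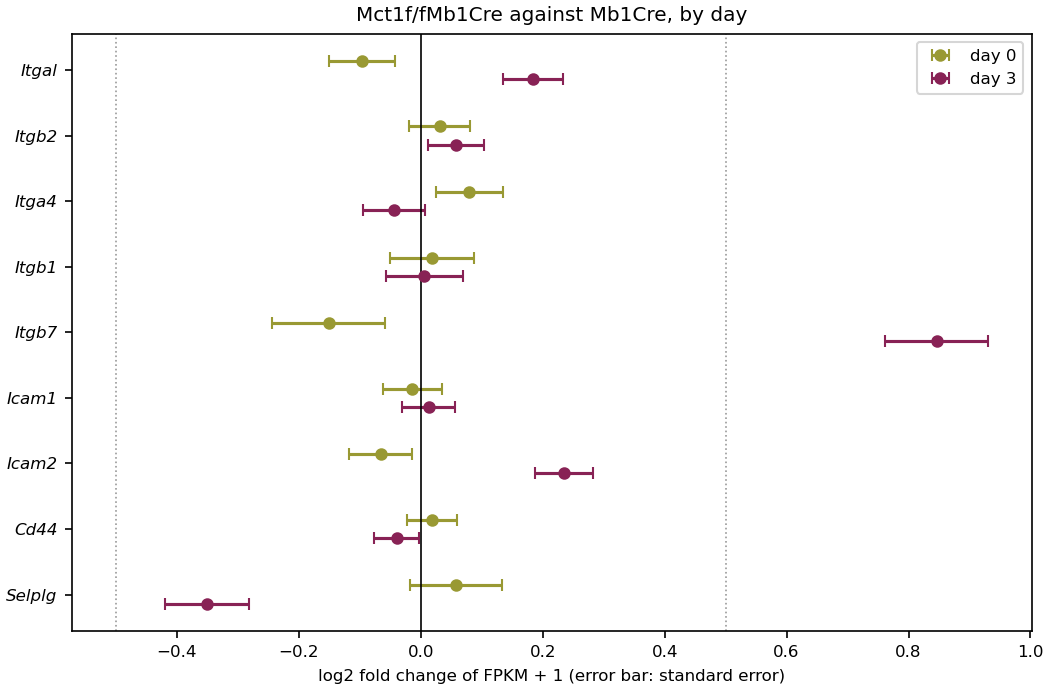
Log2 fold change of FPKM + 1 in *Mct1f/fMb1Cre* against *Mb1Cre* libraries for each of the 9 genes, with standard errors; green is day 0, purple is day 3, and dotted lines mark the limit of 0.5. *Itgb7* on day 3 lies at 0.85, past the limit, and the other values lie between -0.35 and 0.24.

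The difference between the genotype effects of the 2 days was tested as an interaction. It was called for *Itgb7* (1.00 on the log2 scale, SE 0.125, 95% interval 0.72 to 1.27, adjusted p = 0.00154), which is the amount by which its fall with activation was smaller in *Mct1f/fMb1Cre* cells. Over all genes the interaction was called higher for 1.02% and lower for 2.22%, and of the members for 1 and 0. *Itgb7* gave 1.04 without replicate 1 and 0.96 without replicate 2 of the day 0 *Mct1f/fMb1Cre* label. By the adjusted p alone, 3 members were higher (3.82% of all genes) and 1 lower (5.61%), with *Icam2* at 0.30 (adjusted p = 0.0256), *Itgal* at 0.28 (adjusted p = 0.0384) and *Selplg* at -0.41 (adjusted p = 0.0334). *Selplg* passed the limit without replicate 2 of control on day 0 (-0.52) and without replicate 2 of the *Mct1f/fMb1Cre* label on day 0 (-0.50). The median over the 9 was 0.03, beside -0.02 over all genes.

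For each member, the tested genes with the nearest profile over the 9 libraries were found by the root mean square difference of centred log2(FPKM + 1) values. For *Itgb7* the nearest was *S1pr1*, the sphingosine 1-phosphate receptor that lets lymphocytes leave lymphoid organs, at 0.18 (Pearson's r = 0.998 over the 9 libraries), then *Fcgrt* (0.19) and *Arhgef18* (0.19). For *Cd44* they were *Got2* and *Got1*, the mitochondrial and cytosolic aspartate aminotransferases, at 0.022 and 0.032, and *Nasp*, a histone chaperone, at 0.039. *Itga4* lay nearest to *Nav1*, *Gpr34* and *Klhl24* (0.053 to 0.062), *Itgb2* to *Hipk1*, *Syne1* and *Fam13b* (0.029 to 0.042), and *Icam2* to *Esyt1*, *Ap5z1* and *Wdr81* (0.038 to 0.048). *Icam1* lay nearest to *Dnajc13*, *Yeats2* and *Cyb561d2* (0.032 to 0.033) and *Itgb1* to *Arl8b*, *LOC115486128* and *Tsn* (0.030 to 0.041). *Itgal* lay nearest to *Parp1* (0.037, r = 0.910), *Zfp217* and *Ddx54*, and *Selplg* to *Efcab2* (0.044, r = 0.974), *Zfp54* and *Phactr2*. The 9 libraries fall into 2 days, which set most of these correlations, and they are given as a description.

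Around the 9 genes, 113 other genes of adhesion in 10 lists were in the table and 86 were tested. In control, 12 of the 86 were called higher and 52 lower with activation (median log2 fold change -0.80), and in *Mct1f/fMb1Cre* cells 10 were higher and 53 lower (median -0.70). Among all tested genes 24.8% and 33.0% were called higher and lower in control, with a median of -0.12. The falls counted include genes that passed the filter only through day 0, so the counts are a description.

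Other integrin subunits and ligands mostly fell. Of 9 other integrin subunits tested in control, 1 rose and 8 fell. *Itgb3*, the β chain of the vitronectin receptor, rose from 9.45 and 7.46 FPKM to 30.3 and 29.8 FPKM, while *Itgax* (CD11c) went from 29.9 and 32.6 FPKM to 0.36 and 0.44 FPKM and *Itgad* from 16.9 and 21.4 FPKM to 0.03 and 0.03 FPKM. These 2 α chains are partners of β2 that myeloid cells also make. They passed the filter only through day 0, so their falls are given as a description. Of 5 other ligands, 1 rose and 3 fell. *Vcam1*, the ligand of VLA-4, was at 81.9 and 92.0 FPKM on day 0 and at 0.06 and 0.03 FPKM on day 3, and *Fn1* went from 44.4 and 18.1 FPKM to 0.50 and 0.55 FPKM. *Madcam1*, the ligand of α4β7, rose from 0.11 and 0.08 FPKM to 2.38 and 2.86 FPKM. Its mean over the libraries was 1.19 FPKM, so it passed the filter only through day 3, and its rise is given as a description. *Vcam1* and *Fn1* passed it only through day 0, and their falls are likewise a description. Both are among the genes that macrophages make, and the part of the lower macrophage markers in these falls was not tested.

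Of 10 selectins and enzymes for selectin ligands, 3 rose and 5 fell in control. *Gcnt1*, the core 2 enzyme that builds the selectin-binding sugar of PSGL-1, fell from 12.9 and 12.3 FPKM to 1.31 and 1.67 FPKM. *B4galt1*, a galactosyltransferase, rose from 28.7 and 28.6 FPKM to 113 and 116 FPKM, and *Tpst1*, a tyrosine sulfotransferase, from 23.7 and 23.6 FPKM to 43.3 and 43.3 FPKM. Of 3 hyaluronan genes, *Hmmr*, a hyaluronan receptor that is also a mitotic spindle protein, rose from 4.56 and 4.14 FPKM to 29.5 and 32.0 FPKM and *Cemip2*, a hyaluronidase, fell from 3.06 and 2.66 FPKM to 1.38 and 1.53 FPKM. Of 7 proteases that shed adhesion receptors, 1 rose and 4 fell, among them *Mmp9*, which went from 107 and 12.4 FPKM to 0.29 and 0.69 FPKM, and *Adam8* (12.8 and 10.5 FPKM to 2.02 and 2.17 FPKM).

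Of 15 inside-out activators tested in control, 1 rose and 10 fell, among them *Fyb*, which passed the filter only through day 0. *Rasgrp2*, which encodes CalDAG-GEFI, an exchange factor of RAP1, fell from 183 and 189.8 FPKM to 23.5 and 22.9 FPKM and the adaptor *Fyb* (ADAP) from 25.5 and 27.5 FPKM to 0.61 and 0.80 FPKM, while *Rap1a* itself rose from 58.3 and 56.4 FPKM to 117 and 122 FPKM. Of 9 negative regulators, 1 rose and 6 fell, with *Sipa1*, a RAP1 GTPase-activating protein, going from 224 and 232 FPKM to 39.9 and 41.5 FPKM and *Rhoh* from 27.5 and 26.9 FPKM to 7.25 and 6.91 FPKM.

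Of 16 genes of the adhesion complex, 1 rose and 9 fell. *Ptk2*, which encodes the focal adhesion kinase, rose from 2.92 and 3.34 FPKM to 6.71 and 7.36 FPKM, *Zyx* fell from 79.0 and 95.6 FPKM to 13.4 and 14.7 FPKM and *Actn1* from 22.1 and 19.3 FPKM to 1.01 and 1.49 FPKM. Of 4 ERM genes, whose products link the tails of CD44, ICAMs and PSGL-1 to actin, *Ezr* fell from 196 and 195 FPKM to 72.9 and 71.8 FPKM and *Msn* from 394 and 384 FPKM to 208 and 211 FPKM. Of 8 membrane partners, 2 rose and 4 fell, with *Slc3a2* (CD98) rising from 62.4 and 63.4 FPKM to 141 and 142 FPKM and *Cd9* falling from 33.7 and 32.3 FPKM to 8.83 and 7.90 FPKM and *Cd151* from 9.62 and 10.35 FPKM to 2.74 and 2.67 FPKM. The genes named in these lists were called in the same direction in *Mct1f/fMb1Cre* cells, where, apart from the limit of 1, *Cemip2*, *Mmp9* and *Madcam1* lost the call under some alternatives and *Cemip2* went to 9.4e-04 under quantile normalization. In control *Cemip2* lost it under quantile normalization (-0.22) and with a pseudocount of 5 (-0.28). The macrophage, neutrophil and T and NK cell markers were lower on day 3 as well, and their part in the falls of these lists, the proteases included, was not tested. A log2 limit of 1 also ended the calls of *Tpst1*, *Msn* and *Cemip2* in both genotypes, of *Ptk2* in control and of *Itgb3* in *Mct1f/fMb1Cre* cells.

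**Figure D5:**
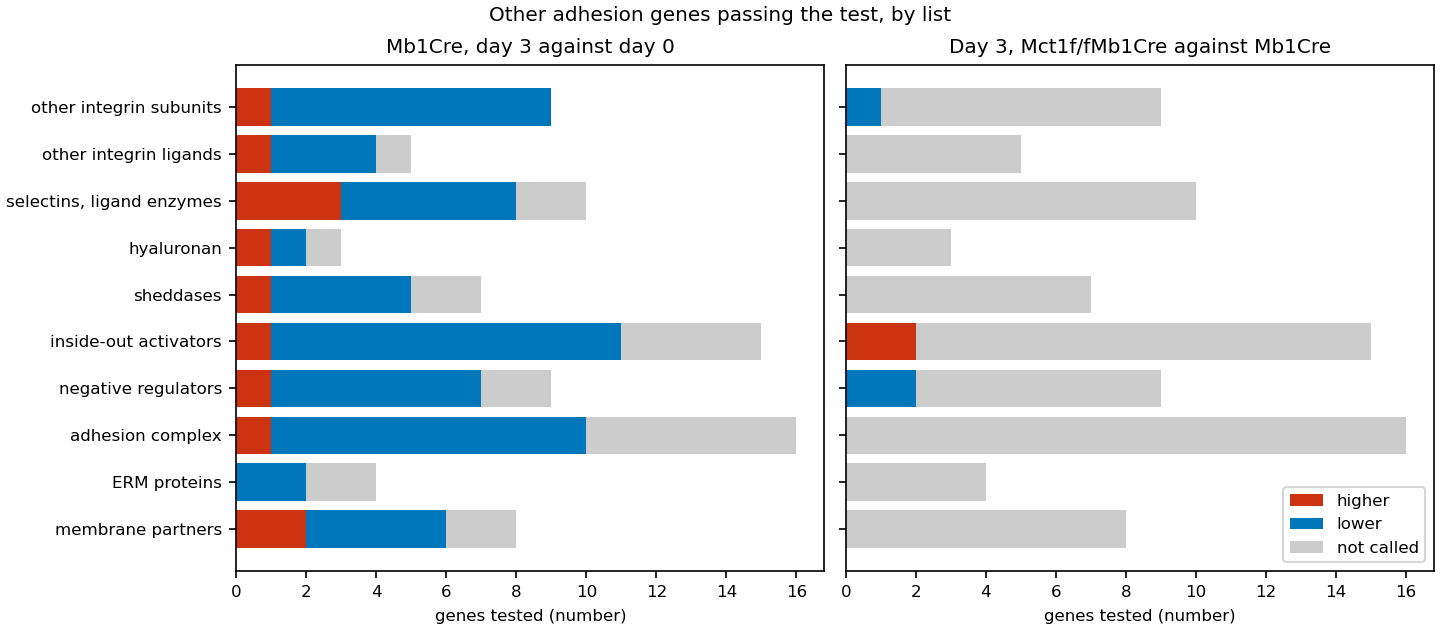
Number of tested genes called higher (red), lower (blue) or not called (grey) in each of the 10 other adhesion lists, left for day 3 against day 0 in *Mb1Cre* cells and right for *Mct1f/fMb1Cre* against *Mb1Cre* on day 3. On the left 52 of 86 genes are lower and 12 higher, and on the right 3 are lower and 2 higher.

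Between the genotypes on day 3, 2 of the 86 were called higher and 3 lower (median log2 fold change 0.04, beside -0.01 over all genes), where 0.887% and 1.53% of all tested genes were. On day 0 limma called 0 of 86, with an unadjusted p under 0.05 for 15 (17.4%), beside 11.7% of all tested genes. *Itgb3* stood at 30.3 and 29.8 FPKM in control and at 14.7, 13.7 and 14.4 FPKM in *Mct1f/fMb1Cre* cells (log2 fold change -1.03, adjusted p = 2.50e-05). *Rap1gap*, which switches RAP1 off, stood at 9.06 and 8.87 FPKM against 4.03, 4.31 and 3.67 FPKM (-0.996, adjusted p = 4.05e-05). *Cytip*, whose product cytohesin-interacting protein restrains LFA-1 adhesion, stood at 92.6 and 90.9 FPKM against 49.1, 49.8 and 51.6 FPKM (-0.86, adjusted p = 1.27e-05). The genotypes did not overlap in any of these.

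The 2 called higher are both RAP1 and RAS exchange factors of the activator list. *Rasgrp2* stood at 23.5 and 22.9 FPKM in control and at 32.6, 38.2 and 35.5 FPKM in *Mct1f/fMb1Cre* cells (0.59, adjusted p = 1.26e-04), and *Rasgrp3* at 14.6 and 15.2 FPKM against 21.6, 21.8 and 21.2 FPKM (0.50, adjusted p = 0.00200). *Rasgrp3* lies at the limit and fell under it when replicate 1 of control (0.47) or replicate 1 or 2 of *Mct1f/fMb1Cre* (0.499 and 0.49) was left out, and also with a pseudocount of 5 (0.41) and under quantile normalization (0.49).

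The interaction was called for 7 of the 86 genes, 3 higher and 4 lower (median 0.05, beside -0.02 over all genes), where 1.02% and 2.22% of all tested genes were. *Itgb3*, *Rap1gap*, *Cytip* and *Rasgrp2* were among them, at -0.83, -1.11, -0.83 and 0.68 on the log2 scale. The other 3 were *Hmmr* (-0.52), *Flna*, which encodes filamin A, a competitor of talin on β tails (0.53), and *Nedd9*, an adaptor of the focal adhesion kinase (0.57). On day 3 *Nedd9* stood at 54.4 and 58.7 FPKM in control and at 78.3, 75.1 and 75.8 FPKM in *Mct1f/fMb1Cre* cells, and *Flna* at 41.6 and 43.8 FPKM and 57.9, 57.1 and 61.5 FPKM. For these 2 the difference on day 3 itself was under the limit (0.43 and 0.45).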

How the data were processed

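RNA was sequenced from splenic B cells in 9 libraries, grouped by their labels. FPKM values were deposited by the authors, rounded to 2 decimals, and their read processing was done by the sequencing institute. The submitters' processing notes name Bowtie2 and the builds GRCm38 and mm10, while annotation and use of strand are not given in the sources used here. FPKM hold no counts, and low values showed no step from which reads could be recovered (the commonest ratio held 6.04% to 10.2% of low genes), so depth is unknown and no counting error is given.

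The values were transformed as log2(FPKM + 1), which understates changes of low genes, and not scaled again. The 10823 of 17596 genes whose mean reached 1 FPKM entered 1 limma fit (limma 3.58.1, R 4.3.3) in which each of the 4 groups had its own mean. Genes near 0 on 1 of the days, such as *Madcam1*, *Itgax*, *Itgad* and *Vcam1*, reached that mean only through the other day. The spread was moderated by empirical Bayes along its trend with expression, and p-values were adjusted by Benjamini-Hochberg over all 10823 genes. Calls needed an adjusted p under 0.05 and a log2 change above 0.5, in 5 comparisons. In data simulated with normal noise, 100 genes were changed by 1 and 100 by 1.5. Of these, 100% and 99% were recovered for the genotypes on day 3 and 96% and 99% for the interaction. Of 10623 unchanged genes, 0 and 6 were called. The changed genes all had a mean of at least 5 FPKM, so recovery of lower genes, or of changes near the limit, was not tested.

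The 9 members, 10 adhesion lists and 8 marker lists were chosen with earlier results of these data known. Named were all members, *Slc16a1*, the listed genes called between genotypes or in the interaction, up to 2 genes per list with the largest rise and fall called the same way in both genotypes, the 3 nearest profiles of each member, and of each marker list the most abundant gene and those near 0. *Adgre1*, *Mpeg1*, *Fcgr3*, *C1qa*, *Cd14*, *Csf1r*, *Clec4n*, *Plxnd1*, *Dtx1*, *S1pr3*, *Cd1d1*, *Myof*, *Blk* and *Ebf1* were picked after their values were seen. A gene that the rule names is not reported here. Alternatives were pseudocounts of 0.1 and 5, no filter or a mean of 5 FPKM, 3 scalings, only the groups compared, a block for the replicate number, moderation without the trend, a stricter log2 limit (1) or no limit, and the libraries left out singly. *Ahsp* and *Xist* of the marker lists were not analysed here. Coordinates are those of GENCODE M21 (GRCm38), and promoter windows those of RefSeq (GRCm38.p6). Figures were drawn with matplotlib 3.10.9.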

Additional observations from a re-analysis of the deposited data

Results flagged for a closer look

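For 15 of the genes named above the interaction test found unlike genotype effects on the 2 days, with a limma adjusted p under 0.05 and a difference above 0.5. The values are the log2 effect of the genotype on day 3 minus that on day 0, where the day 0 libraries are taken by their labels. It was higher on day 3 for *Itgb7* (1.00), *Rasgrp2* (0.68), *Nedd9* (0.57) and *Flna* (0.53). It was lower on day 3 for *Rap1gap* (-1.11), the targeted gene *Slc16a1* (-1.06), *Cytip* (-0.83), *Itgb3* (-0.83) and *Hmmr* (-0.52). *Hmmr* came under the limit without replicate 2 of control on day 0 (-0.47) or day 3 (-0.47), replicate 1 of *Mct1f/fMb1Cre* on day 0 (-0.49) or its replicate 3 on day 3 (-0.49), and with a pseudocount of 5 (-0.39). *Flna* did so without replicate 1 of control on day 0 (0.46) or day 3 (0.49) or replicate 3 of *Mct1f/fMb1Cre* on day 3 (0.497), and with a pseudocount of 5 (0.493). Of the markers it was called for *Dtx1* (0.59), *Lyz2* (0.57), *Adgre1* (0.51) and *Hba-a1* (-0.91). *S1pr1* (0.98) and *Arhgef18* (0.77) were chosen for a profile near that of *Itgb7* over the same libraries, so the choice largely fixed their values, which are a description. The adhesion genes other than *Itgb7* include all those of the lists called in the interaction, so the 15 is a count of what was named and not a result. No group of the 9 libraries has the 4 samples that a test for single outlying samples needs.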

How the results depend on the processing

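The call of *Itgb7* on day 3 held under every alternative run except a pseudocount of 5 (0.46) and a log2 limit of 1. Its interaction held under all but the limit of 1. Over all values of the 9 members under these alternatives, 885 kept their direction and their side of the threshold, 21 passed it anew, 3 lost it and 27 turned sign. On day 3, 262 genes were called between the genotypes, 421 with a pseudocount of 0.1, 120 with one of 5, 54 with a limit of 1 and 1650 with none. Members called there went from 1 to 0 with a pseudocount of 5 or a limit of 1 and to 4 without a limit, and listed adhesion genes from 5 to 1 with a limit of 1 and 26 with none. On day 0, 30 genes became 13 without the filter, 2 with only the groups compared and 16 with a limit of 1. The interaction went from 350 genes to 156 with a pseudocount of 5, 56 with a limit of 1 and 1020 with none, its members from 1 to 0 and 4 with these limits, and its listed genes from 7 to 1 and 18. With activation in control, 6258 genes became 3191 with a limit of 1, and members went from 5 to 8 without a limit. In *Mct1f/fMb1Cre* cells 6120 genes became 2994 with a limit of 1 and 9258 with none, members went from 5 to 8 without one, and listed genes from 63 to 38 with a limit of 1.

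Some values turned sign with the scaling. With activation in control, *Itgal* went from -0.19 to 0.020 under median-of-ratios scaling, and *Selplg* from 0.014 to -0.19 under a common total and -0.23 under quantile normalization. In *Mct1f/fMb1Cre* cells *Itgal* went from 0.090 to -0.086 and -0.017 under these 2, and *Cemip2*, a called fall, from -0.51 to 9.4e-04 under quantile normalization. *Cemip2* also lost its call in control under quantile normalization (-0.22) and a pseudocount of 5 (-0.28), and *Madcam1* in *Mct1f/fMb1Cre* cells with a pseudocount of 5 (0.42). The interaction of *Itgb1* went from -0.013 to 0.011 and 0.022. The causes were not tested.

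With each library left out, 257 to 269 genes were called between the genotypes on day 3 (1 member throughout, 4 to 5 listed genes), 22 to 101 on day 0 (no member, 0 to 5 listed genes) and 264 to 437 in the interaction (1 to 2 members, 5 to 13 listed genes). The 101 genes and 5 listed genes on day 0 came without replicate 2 of control on day 0, as did the 13 listed genes of the interaction, and 67 genes on day 0 came without replicate 2 of the *Mct1f/fMb1Cre* label. With activation in *Mct1f/fMb1Cre* cells, *Mmp9* (-1.88 with all libraries) lost its call without replicate 1 of day 0 (-1.51) or replicate 1 or 2 of day 3 (-1.58 and -1.74), and *Cemip2* without replicate 2 of day 0 (-0.46) or of day 3 (-0.45). Activation gave 6178 to 6280 genes in control (5 to 6 members, 64 to 65 listed genes) and 6049 to 6216 in *Mct1f/fMb1Cre* cells (5 to 6 members, 59 to 64 listed genes). Signs of small effects turned. On day 3 these were *Itga4* (-0.11 to 0.024), *Itgb1* (-0.018 to 0.030) and *Icam1* (-0.029 to 0.054). On day 0 these were *Itgb2* (-0.041 to 0.10), *Itgb1* (-0.068 to 0.10), *Icam1* (-0.044 to 0.016), *Icam2* (-0.13 to 0.0039), *Cd44* (-0.013 to 0.049), *Selplg* (-0.056 to 0.17) and *Slc16a1* (-0.13 to 0.024). In the interaction these were *Itgb2* (-0.045 to 0.099), *Itgb1* (-0.099 to 0.074) and *Icam1* (-0.015 to 0.068), and with activation in control *Selplg* (-0.10 to 0.13).

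The replicate numbers of the labels were tried as a block. They did not pair the samples, since deviations of same-numbered samples correlated at -0.12 in control, 0.053 and 0.064 in *Mct1f/fMb1Cre* cells and -0.045 to -0.068 within a day. The block, which leaves replicate 3 of *Mct1f/fMb1Cre* on day 3 without weight, gave 262 genes between the genotypes on day 3, 27 on day 0, 274 in the interaction and 6261 and 6103 with activation, and *Itgb7* was at 0.83 on day 3 (adjusted p = 0.0024). *Hmmr* (-0.49) and *Flna* (0.497) then missed the limit in the interaction.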

Other observations

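Among the B cell markers, *Cd22*, an inhibitory co-receptor of the B cell receptor, stood at 262 and 266 FPKM in control and 341, 330.2 and 338 FPKM in *Mct1f/fMb1Cre* cells on day 3 (log2 fold change 0.35, limma adjusted p = 2.82e-04). The change was inside the limit of 0.5 and the groups did not overlap. The gene was picked after its values were seen.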
